A study of Mus musculus with 9 samples.

Results

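Gene expression in muscle that lost myonuclear accretion from birth was compared with control muscle across all measured genes, with genes of slow fibers given only in brief. The comparison rests on the 3 Δ1w arrays (D1w in the sample labels) and the 3 control arrays, 6 of the 9 arrays of the study, and takes in 22206 gene rows. All samples were tibialis anterior (TA), a fast muscle of the lower leg, from mice at P28, with 1 Clariom S Mouse array per mouse. Δ1w mice carried a *Pax7*-driven, tamoxifen-inducible Cre (Pax7creER) and floxed *Mymk* (8c in the labels) and were given tamoxifen at P0. Replicates 1 and 8 were fl/fl, replicate 5 was LacZ/fl, and the mTmG reporter was recorded for replicates 1 and 5. Control mice had no Pax7creER. Replicates 1 and 6 were LacZ/fl, replicate 2 was fl/fl, and all 3 carried mTmG. The labels record no tamoxifen for them, whereas the methods describe tamoxifen for all mice, so Cre, tamoxifen and deletion cannot be told apart here. Another group, Δ2w, was LacZ/fl with Pax7creER and mTmG in all 3 mice, with tamoxifen at P6. It was fitted in the same model. The labels give an average of 233 nuclei per fiber in control and 55 in Δ1w muscle, counted by the study in another leg muscle, the extensor digitorum longus.

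Muscle fibers are syncytia. They grow after birth as satellite cells, the Pax7-positive stem cells of muscle, give rise to progenitors that fuse with them and add their nuclei. Myomaker, the membrane protein encoded by *Mymk*, is required for this fusion, and Cre driven by *Pax7* removes the gene in satellite cells and their progeny but not in nuclei already inside the fiber. On arrays of whole muscle, fewer cells of a type and less RNA per cell cannot be told apart. Signals below are on a log2 scale, a log2 change is the Δ1w mean minus the control mean, and values of single mice are listed in the order of control replicates 1, 2, and 6 and Δ1w replicates 1, 5, and 8. Adjusted p-values come from limma with Benjamini-Hochberg adjustment over all rows, a gene was called at an adjusted p under 0.05, and 3 mice per group limit the precision. The p-values set each change against a spread between mice. Limma estimated this spread from the control, Δ1w, and Δ2w mice together and moderated it across rows.

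*Mymk* was at 11.82, 12.03, and 11.61 in the control mice and 8.99, 7.49, and 7.94 in the Δ1w mice (log2 change −3.68, standard error 0.42, adjusted p = 0.00262). The loss was smallest in Δ1w replicate 1, and the groups did not overlap. No source used here places its probes inside or outside the deleted exon. The defining satellite cell gene *Pax7* was near background in both groups, at 5.16, 5.13, and 4.64 in the control mice and 4.67, 4.81, and 4.51 in the Δ1w mice (−0.31, adjusted p = 0.487). Of 15 satellite cell genes, 1 fell, 0 rose, and 14 did not pass, where 0.5% of all rows fell and 0.905% rose. Changes were negative in 8 and positive in 7, against 50.3% and 49.7% of all rows. At an unadjusted limma p under 0.05, 4 members were lower and 0 higher, as were 6.79% and 7.2% of all rows. The gene that fell was *Fgfr4*, a fibroblast growth factor receptor of satellite cells, at 5.96, 5.55, and 6.69 in the control mice and 4.65, 4.30, and 3.77 in the Δ1w mice (log2 change −1.83, standard error 0.30, adjusted p = 0.0126). Negative control probes, however, had medians of 5.77 to 6.25 on the 6 arrays, and all 3 Δ1w signals lay below them. Control replicates 1 and 2 also lay below the medians of their own arrays (6.10 and 6.25), so the size of the fall is uncertain. *Megf10*, a receptor of satellite cells, was at 7.89, 7.07, and 7.99 in the control mice and 6.52, 6.76, and 6.54 in the Δ1w mice, and *Calcr*, the calcitonin receptor of quiescent satellite cells, at 5.30, 5.07, and 5.73 in the control mice and 4.75, 4.55, and 4.24 in the Δ1w mice (adjusted p = 0.106 and 0.0728). Every *Calcr* signal lay below the medians of the negative control probes. *Hey1*, another member, lay well above them, at 10.11, 9.43, and 9.58 in the control mice and 8.95, 7.99, and 9.01 in the Δ1w mice. It did not pass (−1.06, adjusted p = 0.105). Among members with a positive change the largest was that of *Itga7*, an integrin of satellite cells and fibers, at 11.005, 10.24, and 10.43 in the control mice and 10.32, 11.65, and 11.72 in the Δ1w mice (0.67, adjusted p = 0.393). The median change of the list was −0.31, against −0.00 over all rows, and it was 0.16 over the members with a mean signal of at least 6. Without control replicate 6 it was −0.10, without Δ1w replicate 1 −0.18, and without any 1 of the other mice −0.24 to −0.22. *Fgfr4* lost its call without Δ1w replicate 5 or 8 (adjusted p = 0.0526 to 0.0529).

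The arrays were alike in brightness, with medians of 6.37 to 6.44 over gene rows. The 12 markers of the skeletal myofiber were called in 0 cases (limma, 0 at an unadjusted p under 0.05), but their mean signal was 18.75 to 18.88 on the 6 arrays, close to the highest signal of 19.93, so that they show that fiber transcripts were abundant in all mice and cannot show whether their amount was alike. Y-linked transcripts were low in 1 mouse of each of the 3 groups (3.59 to 4.58, against 7.42 to 11.61 in the other mice). Δ1w replicates 5 and 8 share a prefix in their sample names, which the sources used here do not explain, while those of Δ1w and control mice never coincide. Prefix and group therefore cannot be told apart. Over all gene rows, the Euclidean distance to the control mean was 59.9 for Δ1w replicate 1, 72.6 for replicate 5, and 73.6 for replicate 8. Each control mouse lay 57.5 to 60.1 from the mean of the remaining 2 control mice, a mean of fewer mice, so these values are not like for like. Between single mice, the control mice lay 66.39 to 69.37 from each other. From control replicates 1, 2, and 6, Δ1w replicate 1 lay 71.21, 69.96, and 73.62, replicate 5 lay 80.35, 84.86, and 82.26, and replicate 8 lay 81.05, 85.10, and 83.88.

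Of the 22206 rows, 312 differed between Δ1w and control muscle (1.41%). They divided into 201 higher in Δ1w (0.905%) and 111 lower (0.5%), and in all 312 the 3 Δ1w mice lay outside the range of the 3 control mice. Over all rows, the Δ1w mice lay above every control mouse in 8.53% and below every control mouse in 8.95%. At least 2-fold changes were found in 158 of the higher and 69 of the lower rows, and at least 4-fold changes in 23 and 7. The count was unequal between single mice. Rows more than 1 log2 unit above all control mice numbered 127 in Δ1w replicate 1, 316 in replicate 5, and 293 in replicate 8, and rows as far below them numbered 63, 145, and 176. Of the 201 higher rows, replicate 1 was the Δ1w mouse nearest to control in 120 and the farthest in 34. Of the 111 lower rows it was nearest in 74 and farthest in 15. The median change of the higher rows was 1.14 in replicate 1, 1.44 in replicate 5, and 1.30 in replicate 8, and that of the lower rows −0.93, −1.18, and −1.21. Since these rows were called with all 3 mice, these values describe the mice and are not a test.

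**Figure D1:**
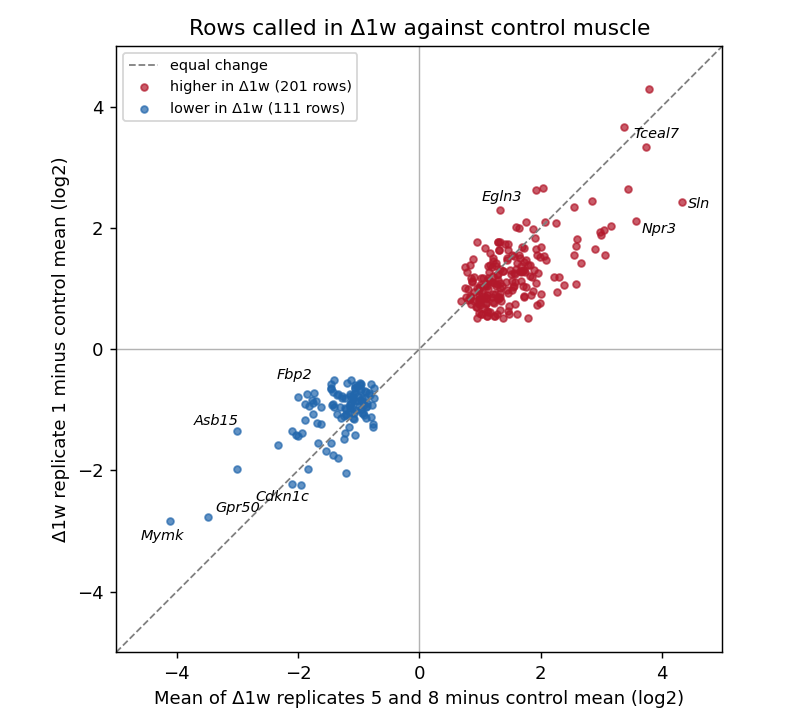
Each point is 1 of the 312 rows called in Δ1w against control muscle, with the mean change of Δ1w replicates 5 and 8 from the control mean on the x axis and the change of replicate 1 on the y axis, both in log2 units. All 201 higher and all 111 lower rows have the same sign on both axes. Since the groups did not overlap in any called row, this shared sign was fixed in advance. Most rows lie on the side of the dashed line where replicate 1 changed less.

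The count depended on single mice. It was 653 without Δ1w replicate 1, 104 without replicate 5, 131 without replicate 8, and 146 to 156 without any 1 control mouse. With replicate 1 alone standing for Δ1w muscle 20 rows were called, 15 of them shared with the 312, and the spread in that fit came from the control and Δ2w mice, since 1 mouse has none of its own. Calls that were lost when 1 mouse was left out are named with each gene group, and of 98 called genes chosen by rule 41 were kept without any 1 mouse.

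The largest rise of a named gene outside the slow fiber program was that of *Tceal7*, a small nuclear protein related to transcription elongation factors and studied as a brake on myoblast division. It was at 11.47, 10.12, and 10.07 in the control mice and 13.88, 14.82, and 13.75 in the Δ1w mice (log2 change 3.60, standard error 0.39, adjusted p = 0.00203), and all 3 Δ1w mice lay more than 2 log2 units above the brightest control mouse. *Fam171b*, a membrane protein, was nearly the same in the control mice (7.80, 7.87, and 7.79) and higher in each Δ1w mouse (10.47, 11.52, and 10.998; log2 change 3.17, standard error 0.25, adjusted p = 0.000237). *Mfhas1*, a leucine-rich repeat protein, was at 7.31, 7.44, and 7.07 in the control mice and 9.09, 9.999, and 9.74 in the Δ1w mice (log2 change 2.34, standard error 0.22, adjusted p = 0.00113). *Zfp385a*, a zinc finger protein that binds p53, changed alike in the 3 Δ1w mice (11.37, 11.47, and 11.62 against 9.33, 9.02, and 9.55; log2 change 2.19, standard error 0.18, adjusted p = 0.000237). *Aldh1a1*, which makes retinoic acid from retinaldehyde, was at 11.94, 11.84, and 12.46 in the control mice and 14.70, 14.30, and 13.70 in the Δ1w mice (log2 change 2.15, standard error 0.25, adjusted p = 0.00277), and Δ1w replicate 1 was the highest of the mice. *Rcan1*, an inhibitor of the phosphatase calcineurin, was at 12.13, 12.12, and 11.89 in the control mice and 13.12, 14.28, and 14.99 in the Δ1w mice, with the smallest rise in Δ1w replicate 1 (log2 change 2.08, standard error 0.36, adjusted p = 0.0174). *BC049352*, *Tspan9*, a tetraspanin, and *Atp1b4*, which resembles the β subunits of the sodium pump, had changes of 2.63, 2.25, and 2.29 (adjusted p = 0.00203, 0.00519, and 0.00399), and *BC049352* lay below the negative control medians in all 3 control mice. The largest rise of any row, 3.95, belonged to a row with no gene symbol, and 20 such rows rose and 5 fell. *Tceal7*, *Fam171b*, *Mfhas1*, *Zfp385a*, *Aldh1a1*, *BC049352*, *Tspan9*, and *Atp1b4* kept their calls without any 1 mouse (highest adjusted p = 0.0356). *Rcan1* lost its call without control replicate 1, 2, or 6 or Δ1w replicate 5 (adjusted p = 0.0578 to 0.0786).

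**Figure D2:**
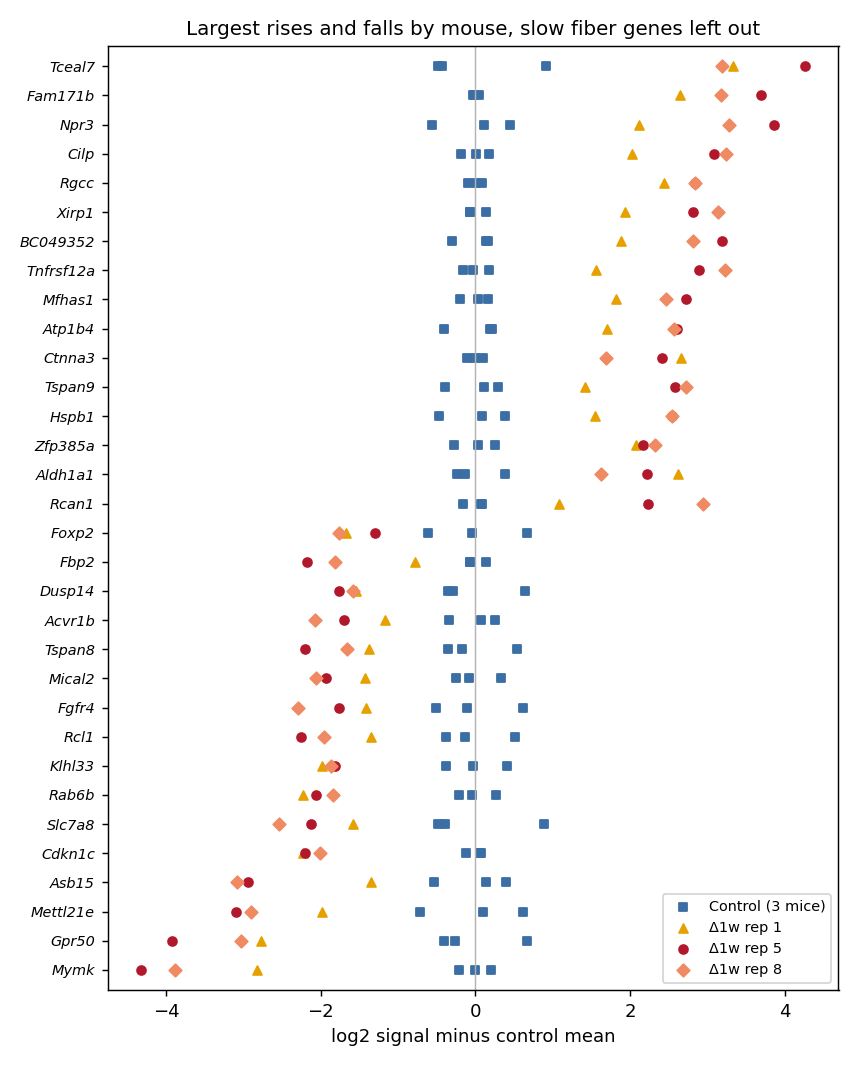
The x axis gives the log2 signal of each mouse minus the control mean, for the 16 largest named rises (top) and the 16 largest falls (bottom) with slow fiber genes left out. Squares are the 3 control mice, and the triangle, circle, and diamond are Δ1w replicates 1, 5, and 8. No gene shows an overlap of the groups, and in rows such as *Rcan1* and *Fbp2* the triangle of replicate 1 lies nearest to the control mice, while in *Aldh1a1* and *Ctnna3* it lies farthest.

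Among the largest falls, *Gpr50*, an orphan receptor related to melatonin receptors, was at 7.89, 7.75, and 8.83 in the control mice and 5.38, 4.22, and 5.12 in the Δ1w mice (log2 change −3.25, standard error 0.34, adjusted p = 0.00203), and the Δ1w mice lay below the negative control medians. *Mettl21e*, a lysine methyltransferase of skeletal muscle, fell from 10.10, 9.28, and 10.61 to 8.02, 6.90, and 7.10 (log2 change −2.66, standard error 0.35, adjusted p = 0.00367), and the other 9 methyltransferases of its list did not pass. *Rcl1*, a factor in the processing of ribosomal RNA, was at 10.91, 10.68, and 11.57 in the control mice and 9.71, 8.80, and 9.10 in the Δ1w mice (log2 change −1.85, standard error 0.27, adjusted p = 0.0073). *Mical2*, which oxidises actin filaments, was at 12.22, 12.64, and 12.06 in the control mice and 10.87, 10.37, and 10.24 in the Δ1w mice (log2 change −1.81, standard error 0.24, adjusted p = 0.00367). *Rab6b*, a Golgi GTPase, fell to 4.39, 4.56, and 4.77 from 6.88, 6.57, and 6.41 (−2.05, adjusted p = 0.00272), and *Foxp2*, a forkhead factor, fell to 3.84, 4.22, and 3.74 from 4.90, 6.17, and 5.46 (−1.58, adjusted p = 0.0257). The Δ1w signals of both lay below the medians of the negative control probes, and neither fall can be sized exactly. All 3 control signals of *Foxp2* also lay below the medians of their own arrays (6.10, 6.25, and 6.04), so its detection is in doubt as well. *Tspan8* (−1.75, adjusted p = 0.0136), *Dusp14* (−1.63, adjusted p = 0.017), a phosphatase of MAP kinases, and *Myo5c* (−1.53, adjusted p = 0.0196), a transport myosin, fell as well. *Gpr50*, *Mettl21e*, *Rcl1*, *Mical2*, and *Rab6b* kept their calls without any 1 mouse (highest adjusted p = 0.0422). *Foxp2* lost its call without control replicate 2 or 6 or Δ1w replicate 5 or 8 (adjusted p = 0.0642 to 0.0992). *Tspan8* lost its call without control replicate 2 or Δ1w replicate 5 (adjusted p = 0.0504 to 0.0676). *Dusp14* lost its call without Δ1w replicate 5 or 8 (adjusted p = 0.0569 to 0.0772). *Myo5c* lost its call without control replicate 1, 2, or 6 or Δ1w replicate 5 or 8 (adjusted p = 0.0535 to 0.0835).

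Genes of the Z-disc and of mechanical stress had the most rises of the structural groups outside the slow fiber program. Of 16 measured members, 4 rose, 0 fell, and 12 did not pass, where 0.905% of all rows rose and 0.5% fell, with a median change of 0.61 (0.42, 0.82, and 0.74 in the 3 Δ1w mice). *Xirp1*, an actin-binding Xin protein of muscle attachments and sites of repair, was at 11.24, 11.03, and 11.04 in the control mice and 13.04, 13.93, and 14.24 in the Δ1w mice (log2 change 2.63, standard error 0.33, adjusted p = 0.00356). *Lmcd1*, a LIM domain cofactor, was at 13.80, 14.33, and 13.45 in the control mice and 15.28, 15.24, and 15.71 in the Δ1w mice (log2 change 1.55, standard error 0.24, adjusted p = 0.0088). *Flnc*, filamin C, which crosslinks actin at the Z-disc, was at 11.63, 11.48, and 11.04 in the control mice and 12.43, 12.98, and 13.22 in the Δ1w mice (log2 change 1.49, standard error 0.24, adjusted p = 0.0108). *Mustn1*, a small nuclear protein of muscle and skeleton, was nearly equal in the Δ1w mice (16.63, 16.61, and 16.69 against 15.37, 15.74, and 15.17; log2 change 1.22, standard error 0.19, adjusted p = 0.0115). The stretch-responsive genes *Csrp3*, *Ankrd2*, and *Ankrd1* had changes of 2.28, 1.79, and 2.08 but spread widely among the control mice (12.56, 13.21, and 10.54 for *Csrp3*) and did not pass (adjusted p = 0.0986, 0.117, and 0.0683). Of 16 genes of the sarcomere scaffold, 0 rose and 2 fell. These were *Tmod4*, tropomodulin 4, which caps thin filaments, at 16.14, 16.32, and 16.32 in the control mice and 15.36, 14.36, and 14.38 in the Δ1w mice (log2 change −1.56, standard error 0.24, adjusted p = 0.0103), and *Obsl1*, an obscurin-like linker of the M-band (−0.99, adjusted p = 0.0195). *Xirp1*, *Lmcd1*, and *Mustn1* kept their calls without any 1 mouse (highest adjusted p = 0.0494). *Flnc* lost its call without Δ1w replicate 5 (adjusted p = 0.0545). *Tmod4* lost its call without Δ1w replicate 5 (adjusted p = 0.0529). *Obsl1* lost its call without control replicate 1 or 6 or Δ1w replicate 5 or 8 (adjusted p = 0.0624 to 0.0806).

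Heat shock proteins, chaperones that hold or refold other proteins, rose in 4 of 16 measured members and fell in 0, against 0.905% and 0.5% of all rows, with a median change of 0.45. *Hspb1*, the small heat shock protein that protects actin and desmin filaments, was at 12.46, 12.74, and 11.90 in the control mice and 13.91, 14.91, and 14.91 in the Δ1w mice (log2 change 2.21, standard error 0.33, adjusted p = 0.0083). *Hspa1l*, of the Hsp70 family, was at 7.33, 7.08, and 6.96 in the control mice and 8.55, 8.79, and 8.89 in the Δ1w mice (log2 change 1.62, standard error 0.17, adjusted p = 0.00203). *Hspb7*, another small heat shock protein of striated muscle, was at 18.28, 18.73, and 17.68 in the control mice and 19.34, 19.57, and 19.30 in the Δ1w mice (log2 change 1.17, standard error 0.23, adjusted p = 0.0315), where the Δ1w mice lay close to the ceiling of the arrays near 19.93, so the size of the rise is uncertain. *Hsp90aa1*, the inducible Hsp90, was at 11.38, 11.18, and 11.41 in the control mice and 11.87, 12.71, and 12.43 in the Δ1w mice (log2 change 1.01, standard error 0.21, adjusted p = 0.0397), and Δ1w replicate 1 lay nearest to the control mice. The summed linear signal of the 16 genes, as log2, was 19.42 to 20.34 in control and 20.63 to 20.66 in Δ1w mice. Bright genes weigh most in this sum, such as *Hspb7* and *Hspb6*, both close to the ceiling in the Δ1w mice. *Hspb6* was at 18.94, 19.36, and 18.39 in the control mice and 19.49, 19.31, and 19.43 in the Δ1w mice and did not pass (adjusted p = 0.322). *Hspb1* and *Hspa1l* kept their calls without any 1 mouse (highest adjusted p = 0.0497). *Hspb7* lost its call without control replicate 1 or 6 or Δ1w replicate 5 or 8 or Δ2w replicate 2, 3, or 4 (adjusted p = 0.054 to 0.123). *Hsp90aa1* lost its call without control replicate 1, 2, or 6 or Δ1w replicate 5 or 8 or Δ2w replicate 2, 3, or 4 (adjusted p = 0.0623 to 0.138).

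Regulators of the stress response and of oxidative stress were called one by one rather than as groups. *Atf4*, the central factor of the integrated stress response, was at 13.42, 13.48, and 13.33 in the control mice and 14.30, 14.33, and 14.45 in the Δ1w mice (log2 change 0.95, standard error 0.16, adjusted p = 0.0135), the only one of 23 genes of ATF4 and the unfolded protein response that was called. *Atf3*, a factor that ATF4 is known to induce, was at 8.28, 7.82, and 7.93 in the control mice and 9.57, 9.54, and 9.75 in the Δ1w mice (log2 change 1.61, standard error 0.28, adjusted p = 0.0183) and was the only one of 20 immediate early genes called. *Egr1*, another immediate early gene, was scattered within both groups (8.81, 10.11, and 8.996 in the control mice and 10.57, 11.60, and 14.37 in the Δ1w mice; 2.87, adjusted p = 0.297). Of 23 genes of oxidative stress defence, 3 rose and 0 fell, against 0.905% and 0.5% of all rows, with a median of 0.01. *Gpx1*, glutathione peroxidase 1, was at 12.91, 12.84, and 13.17 in the control mice and 14.05, 14.16, and 14.35 in the Δ1w mice (log2 change 1.21, standard error 0.17, adjusted p = 0.00462), *Sod3*, the extracellular superoxide dismutase, changed by 1.64 (adjusted p = 0.0351), and *Srxn1*, sulfiredoxin, by 1.24 (adjusted p = 0.0338). Of 23 p53 targets and apoptosis genes, 1 fell and 0 rose. At an unadjusted limma p under 0.05, however, 5 were higher and 2 lower, as were 7.2% and 6.79% of all rows. The gene that fell was *Sesn1*, a sestrin that restrains mTORC1 (9.36, 9.23, and 9.60 against 10.35, 10.70, and 10.47; log2 change −1.11, standard error 0.17, adjusted p = 0.00858). *Cdkn1a*, which encodes the p53 target p21, was at 10.74, 11.16, and 10.92 in the control mice and 12.77, 12.74, and 11.59 in the Δ1w mice and did not pass (1.43, adjusted p = 0.0782). *Gpx1* and *Sesn1* kept their calls without any 1 mouse (highest adjusted p = 0.0448). *Atf4* lost its call without control replicate 6 or Δ1w replicate 5 or 8 (adjusted p = 0.0512 to 0.0562). *Atf3* lost its call without control replicate 2 or 6 or Δ1w replicate 5 or 8 (adjusted p = 0.062 to 0.0764). *Sod3* lost its call without control replicate 1 or 6 or Δ1w replicate 5 or 8 or Δ2w replicate 3 or 4 (adjusted p = 0.0518 to 0.13). *Srxn1* lost its call without control replicate 1 or 6 or Δ1w replicate 1 or 5 or Δ2w replicate 4 (adjusted p = 0.0553 to 0.136).

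Among cell cycle regulators, single genes were called in both directions. *Rgcc*, a regulator of cyclin-dependent kinase 1, was at 8.75, 8.56, and 8.67 in the control mice and 11.10, 11.51, and 11.50 in the Δ1w mice, with little spread within either group (log2 change 2.71, standard error 0.22, adjusted p = 0.000237). *Cdkn1c*, an imprinted gene that encodes the cell cycle inhibitor p57 and marks myoblasts that leave the cycle, fell almost equally in the Δ1w mice, to the level of the negative control probes (6.14, 6.17, and 6.36 against 8.44, 8.24, and 8.43; log2 change −2.15, standard error 0.16, adjusted p = 0.000237). *Cdkn1b*, which encodes the inhibitor p27, fell most in Δ1w replicate 1 (8.06, 8.76, and 8.29 against 10.17, 9.82, and 9.59; log2 change −1.49, standard error 0.26, adjusted p = 0.0179). Of 17 cell cycle brakes and D-type cyclins, *Rgcc* rose, *Cdkn1b* fell, and 15 did not pass, with a median of −0.02, where 0.905% of all rows rose and 0.5% fell. Of 16 imprinted growth genes, *Cdkn1c* fell and the paternally expressed *Dlk1* and *Ndn* rose, against 0.5% and 0.905% of all rows. *Dlk1*, a Notch-like regulator of myogenesis, was at 8.71, 8.16, and 8.82 in the control mice and 9.58, 9.83, and 10.40 in the Δ1w mice (log2 change 1.37, standard error 0.25, adjusted p = 0.0226), and *Ndn*, necdin, at 10.82, 9.98, and 10.78 in the control mice and 11.36, 11.85, and 11.84 in the Δ1w mice (log2 change 1.16, standard error 0.23, adjusted p = 0.0338). Proliferation genes were called in 0 of 24 (limma, 0 at an unadjusted p under 0.05), and their median change was −0.47, −0.01, and 1.08 in Δ1w replicates 1, 5, and 8, which differed in sign. *Rgcc* and *Cdkn1c* kept their calls without any 1 mouse (highest adjusted p = 0.00363). *Cdkn1b* lost its call without control replicate 1 or 2 or Δ1w replicate 8 (adjusted p = 0.058 to 0.0773). *Dlk1* lost its call without control replicate 1 or 2 or Δ1w replicate 5 or 8 (adjusted p = 0.0642 to 0.0851). *Ndn* lost its call without control replicate 1, 2, or 6 or Δ1w replicate 5 or 8 or Δ2w replicate 2, 3, or 4 (adjusted p = 0.055 to 0.132).

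Upstream sequences are shown for 3 genes that rose (*Tceal7*, *Hspb1*, and *Atf3*) and 2 that fell (*Asb15* and *Cdkn1b*), as examples of a regulator of myoblast division, a chaperone, a stress factor, a ubiquitin ligase adaptor, and a cell cycle inhibitor. They are the 250 bases before the RefSeq start of the gene on GRCm38.p6, written 5′ to 3′ on the strand of the gene, and capitals mark matches to the motifs named after them. The windows lie at chrX:136223791-136224040, plus strand (*Tceal7*), chr5:135887669-135887918, plus strand (*Hspb1*), chr1:191183334-191183583, minus strand (*Atf3*), chr6:24527894-24528143, plus strand (*Asb15*), and chr6:134920151-134920400, plus strand (*Cdkn1b*).
Tceal7: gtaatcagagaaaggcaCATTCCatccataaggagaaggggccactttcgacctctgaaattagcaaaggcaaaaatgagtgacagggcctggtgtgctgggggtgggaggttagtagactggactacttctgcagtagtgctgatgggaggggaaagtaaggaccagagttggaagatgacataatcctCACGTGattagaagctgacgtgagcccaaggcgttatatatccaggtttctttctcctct
Hspb1: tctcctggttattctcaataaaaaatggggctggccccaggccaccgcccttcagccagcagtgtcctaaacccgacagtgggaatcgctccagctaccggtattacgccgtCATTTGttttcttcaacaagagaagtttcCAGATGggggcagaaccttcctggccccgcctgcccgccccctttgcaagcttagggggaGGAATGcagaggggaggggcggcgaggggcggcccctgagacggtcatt
Atf3: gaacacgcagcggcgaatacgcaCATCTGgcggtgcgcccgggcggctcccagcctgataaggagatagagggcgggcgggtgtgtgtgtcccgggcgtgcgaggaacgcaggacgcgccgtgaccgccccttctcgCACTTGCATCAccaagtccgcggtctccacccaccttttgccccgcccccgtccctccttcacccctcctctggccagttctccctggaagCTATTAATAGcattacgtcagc
Asb15: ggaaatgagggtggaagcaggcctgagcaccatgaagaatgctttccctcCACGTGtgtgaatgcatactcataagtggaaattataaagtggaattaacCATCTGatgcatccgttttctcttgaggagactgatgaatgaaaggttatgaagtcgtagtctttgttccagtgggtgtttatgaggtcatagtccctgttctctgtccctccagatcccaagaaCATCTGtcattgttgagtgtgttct
Cdkn1b: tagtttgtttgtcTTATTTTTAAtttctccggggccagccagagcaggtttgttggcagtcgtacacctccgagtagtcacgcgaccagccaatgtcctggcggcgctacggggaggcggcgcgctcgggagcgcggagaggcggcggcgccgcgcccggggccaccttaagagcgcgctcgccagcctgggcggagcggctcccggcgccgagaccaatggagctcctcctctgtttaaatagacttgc
The motifs searched on both strands were the E-box (CANNTG), the MCAT box of TEAD factors (CATTCC), and the MEF2 site. Also searched were the ATF4 composite site (TGATGCAA), the cyclic AMP response element (TGACGTCA), and the heat shock element. CANNTG is the general E-box and is not particular to myogenic factors. *Tceal7* holds an MCAT box 233 and an E-box 60 bases before the start. *Atf3* holds an ATF4 composite match 110 and a MEF2 match 22 bases before the start, and the former overlaps an E-box. *Hspb1* has 2 E-boxes and an MCAT box but no match to the heat shock element searched, *Asb15* has 3 E-boxes, and *Cdkn1b* has a MEF2 match. Over the windows of 15691 genes with a symbol, 62.4% held an E-box, 11.5% an MCAT box, 2.64% a MEF2 match, and 0.733% an ATF4 composite match. The shares were 59.4%, 13.8%, 4.35%, and 1.45% of the 138 risen genes with a window and 63.6%, 7.95%, 5.68%, and 0% of the 88 fallen ones. Heat shock elements were found in 0.363% of all windows, in 0.725% of the risen, and in 0% of the fallen, and cyclic AMP response elements in 2.06%, 0.725%, and 0%. These matches are descriptions of short windows.

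Several secreted factors and receptors were called, where 0.905% of all rows rose and 0.5% fell. *Npr3*, the receptor that clears natriuretic peptides, was at 11.04, 10.04, and 10.72 in the control mice and 12.72, 14.46, and 13.88 in the Δ1w mice (log2 change 3.09, standard error 0.38, adjusted p = 0.00356). *Ostn*, which encodes osteocrin, a muscle peptide that binds this receptor, was at 7.22, 6.71, and 7.37 in the control mice and 8.61, 9.57, and 8.61 in the Δ1w mice (log2 change 1.83, standard error 0.28, adjusted p = 0.00891), and these were the only genes called among 7 natriuretic peptides, osteocrin and receptors. *Tnfrsf12a*, the receptor of the cytokine TWEAK, was at 10.08, 10.21, and 10.42 in the control mice and 11.79, 13.13, and 13.46 in the Δ1w mice (log2 change 2.56, standard error 0.45, adjusted p = 0.0182), and the other 14 genes of TWEAK and NF-κB signaling did not pass. *Igfbp6*, which binds insulin-like growth factor 2, was at 8.10, 8.91, and 9.24 in the control mice and 10.22, 10.73, and 10.94 in the Δ1w mice (log2 change 1.88, standard error 0.29, adjusted p = 0.00891), the only call among 22 genes of insulin-like growth factor and myostatin signaling. *Acvr1b*, a type I receptor of activin and myostatin, fell from 10.86, 10.44, and 11.04 to 9.62, 9.08, and 8.71 (log2 change −1.65, standard error 0.26, adjusted p = 0.0103). *Fgfrl1*, a fibroblast growth factor receptor without a kinase domain, was at 10.70, 9.95, and 10.84 in the control mice and 11.68, 12.97, and 12.46 in the Δ1w mice (log2 change 1.88, standard error 0.31, adjusted p = 0.0136), opposite in direction to *Fgfr4*, and 9 of 11 members of this family did not pass. *Ostn* was also the only call among 14 secreted muscle factors. *Npr3*, *Ostn*, and *Igfbp6* kept their calls without any 1 mouse (highest adjusted p = 0.0497). *Tnfrsf12a* lost its call without control replicate 1, 2, or 6 or Δ1w replicate 5 or 8 (adjusted p = 0.0523 to 0.0887). *Acvr1b* lost its call without Δ1w replicate 5 (adjusted p = 0.0517). *Fgfrl1* lost its call without control replicate 2 or Δ1w replicate 5 or 8 (adjusted p = 0.0522 to 0.0574).

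Calls among adaptors of ubiquitin ligases were mostly falls. Of 26 Asb and Kelch-like adaptors, which choose substrates for Cullin ligases, 4 fell and 1 rose, against 0.5% and 0.905% of all rows. *Asb15*, an adaptor of skeletal muscle, was at 9.41, 10.34, and 10.08 in the control mice and 8.59, 7.004, and 6.85 in the Δ1w mice, with the smallest fall in Δ1w replicate 1 (log2 change −2.46, standard error 0.40, adjusted p = 0.0127). *Klhl33* fell almost equally in the Δ1w mice (11.04, 11.20, and 11.16 against 12.99, 12.64, and 13.43; log2 change −1.89, standard error 0.23, adjusted p = 0.00356). *Asb4* and *Klhl31*, the latter a muscle Kelch protein, had changes of −1.02 and −0.79 (adjusted p = 0.0296 and 0.0338), whereas *Klhl30* rose (11.59, 11.86, and 12.24 against 10.64, 10.17, and 10.13; log2 change 1.58, standard error 0.24, adjusted p = 0.00779). The median of the list was −0.12. Of 16 genes of atrophy and proteolysis, the deubiquitinase *Uchl1* rose from signals at the level of the negative control probes (7.48, 8.004, and 7.60 against 6.02, 5.49, and 5.88; log2 change 1.89, standard error 0.22, adjusted p = 0.00277) and 15 did not pass, with a median of −0.31. The atrophy ligases *Fbxo32* and *Trim63* had changes of opposite sign, 1.24 and −0.74 (adjusted p = 0.109 and 0.125). Of 38 proteasome subunits, *Psmd8* was called (1.13, adjusted p = 0.013), and of 16 autophagy genes 0 (limma, 2 higher at an unadjusted p under 0.05). *Klhl33*, *Klhl30*, and *Uchl1* kept their calls without any 1 mouse (highest adjusted p = 0.0393). *Asb15* lost its call without control replicate 2 or 6 or Δ1w replicate 5 or 8 (adjusted p = 0.0519 to 0.0686). *Asb4* lost its call without control replicate 1, 2, or 6 or Δ1w replicate 5 or 8 or Δ2w replicate 4 (adjusted p = 0.0505 to 0.114). *Klhl31* lost its call without control replicate 1, 2, or 6 or Δ1w replicate 5 or 8 or Δ2w replicate 2 or 3 (adjusted p = 0.055 to 0.12). *Psmd8* lost its call without control replicate 2 or 6 or Δ1w replicate 5 (adjusted p = 0.0523 to 0.0628).

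*Stac3* and *Ryr1*, which couple excitation to contraction, fell. Of 15 genes of the sarcoplasmic reticulum and this coupling, 2 fell (0.5% of all rows did), 0 rose, and 13 had a negative change, with a median of −0.33 (−0.34, −0.40, and −0.46 in the Δ1w mice against 0.01, −0.08, and 0.06 in the control mice). Negative changes made up 50.3% of all rows. *Stac3*, the adaptor of the voltage sensor, was at 13.11, 13.06, and 13.14 in the control mice and 12.27, 12.03, and 11.99 in the Δ1w mice (log2 change −1.01, standard error 0.16, adjusted p = 0.0103), and *Ryr1*, the calcium release channel, at 15.92, 15.97, and 15.89 in the control mice and 15.28, 14.85, and 14.90 in the Δ1w mice (log2 change −0.92, standard error 0.17, adjusted p = 0.0213). *Clcn1*, the chloride channel of the fiber membrane, fell to 13.63, 12.90, and 13.16 from 14.31, 14.46, and 14.35 (−1.14, adjusted p = 0.0181), while *Kcnh2*, a potassium channel, was at 7.69, 7.17, and 7.43 in the control mice and 8.69, 8.98, and 9.01 in the Δ1w mice (log2 change 1.46, standard error 0.20, adjusted p = 0.00462). These were the only calls among 11 membrane channels and pumps. At the synapse *Etv5*, an ETS factor, was called (1.18, adjusted p = 0.0351) and 17 of 18 genes of the neuromuscular junction and denervation were not, with a median of 0.01. *Stac3* and *Kcnh2* kept their calls without any 1 mouse (highest adjusted p = 0.0497). *Ryr1* lost its call without control replicate 1, 2, or 6 or Δ1w replicate 5 or 8 (adjusted p = 0.0597 to 0.089). *Clcn1* lost its call without control replicate 1, 2, or 6 or Δ1w replicate 5 or 8 (adjusted p = 0.0554 to 0.0749). *Etv5* lost its call without control replicate 1, 2, or 6 or Δ1w replicate 5 or 8 or Δ2w replicate 2, 3, or 4 (adjusted p = 0.0543 to 0.132).

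Among proteins that tie cells to their surroundings, the integrins *Itga4* and *Itgb3* rose. Of 19 integrins, 2 rose (0.905% of all rows did), 0 fell, and 17 had a positive change, where 49.7% of all rows did, with a median of 0.46. *Itga4* was at 10.06, 9.89, and 9.94 in the control mice and 11.31, 11.23, and 11.07 in the Δ1w mice (log2 change 1.24, standard error 0.19, adjusted p = 0.00891) and *Itgb3* at 7.05, 6.62, and 7.28 in the control mice and 7.84, 8.34, and 8.03 in the Δ1w mice (log2 change 1.08, standard error 0.23, adjusted p = 0.0414). *Ctnna3*, αT-catenin, which anchors cell contacts to actin, rose in each Δ1w mouse (10.70, 10.44, and 9.72 against 8.14, 8.03, and 7.93; log2 change 2.25, standard error 0.25, adjusted p = 0.00203), and 9 other α-catenins and cadherins did not pass. Of 16 genes of the dystrophin complex and membrane repair, *Lama2*, the laminin α2 chain of the basement membrane, rose (0.98, adjusted p = 0.0172) and *Sgcb*, β-sarcoglycan, fell from 13.68, 13.76, and 13.94 to 12.84, 12.53, and 12.46 (log2 change −1.18, standard error 0.18, adjusted p = 0.00886). *Itga4*, *Ctnna3*, and *Sgcb* kept their calls without any 1 mouse (highest adjusted p = 0.046). *Itgb3* lost its call without control replicate 1, 2, or 6 or Δ1w replicate 5 or 8 or Δ2w replicate 3 or 4 (adjusted p = 0.0504 to 0.156). *Lama2* lost its call without control replicate 1 or 2 or Δ1w replicate 5 or 8 (adjusted p = 0.059 to 0.0749).

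Metabolic genes showed few calls, where 0.905% of all rows rose and 0.5% fell. Of 23 genes of glycolysis and glycogen, *Ppp1r3c*, which targets a phosphatase to glycogen, rose (16.64, 16.66, and 16.79 against 15.24, 14.35, and 14.84; log2 change 1.88, standard error 0.28, adjusted p = 0.0083), and *Fbp2*, the muscle fructose bisphosphatase, fell (9.90, 8.51, and 8.87 against 10.62, 10.82, and 10.62; log2 change −1.59, standard error 0.29, adjusted p = 0.0223). *Slc37a4*, the carrier of glucose 6-phosphate, was at 12.82, 12.81, and 13.30 in the control mice and 11.90, 11.39, and 11.05 in the Δ1w mice (log2 change −1.53, standard error 0.23, adjusted p = 0.00858), and *Prkag3*, the AMP-activated kinase subunit of fast muscle, at 9.84, 10.16, and 10.53 in the control mice and 8.43, 9.12, and 8.40 in the Δ1w mice (log2 change −1.53, standard error 0.29, adjusted p = 0.0244). All 17 measured genes of the tricarboxylic acid cycle had a negative change, with a median of −0.35 (−0.30, −0.43, and −0.40 in the Δ1w mice), yet 0 were called (limma, 8 lower at an unadjusted p under 0.05, as were 6.79% of all rows). The lowest p in this list was that of *Idh2*, mitochondrial isocitrate dehydrogenase, at 12.06, 12.33, and 12.04 in the control mice and 11.51, 10.69, and 11.23 in the Δ1w mice (−1.003, adjusted p = 0.0553), and citrate synthase, *Cs*, had a change of −0.53. Of 80 genes of oxidative phosphorylation, 60 had a negative change, where 50.3% of all rows did, the median was −0.15, and 0 were called (limma, 13 lower and 2 higher at an unadjusted p under 0.05). Fatty acid genes were called in 0 of 24 (limma, 3 at an unadjusted p under 0.05) and genes of NAD synthesis and use in 0 of 10 (2). *Ppp1r3c* and *Slc37a4* kept their calls without any 1 mouse (highest adjusted p = 0.0448). *Fbp2* lost its call without control replicate 1, 2, or 6 or Δ1w replicate 5 or 8 (adjusted p = 0.0624 to 0.0922). *Prkag3* lost its call without control replicate 2 or 6 or Δ1w replicate 8 (adjusted p = 0.0773 to 0.0988).

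Amino acid supply and ribosomes gave single falls. Of 39 amino acid transporters, 2 fell and 0 rose, against 0.5% and 0.905% of all rows. *Slc7a8*, an exchanger of large neutral amino acids, was at 10.49, 10.59, and 11.87 in the control mice and 9.40, 8.86, and 8.44 in the Δ1w mice (log2 change −2.08, standard error 0.37, adjusted p = 0.0185), and *Slc38a3*, a glutamine carrier, at 13.62, 13.79, and 13.55 in the control mice and 12.36, 12.37, and 12.61 in the Δ1w mice (log2 change −1.21, standard error 0.18, adjusted p = 0.00683). Of 60 cytosolic ribosomal proteins, *Rpl3l*, the striated muscle paralog of Rpl3, fell (13.53, 12.20, and 13.004 against 14.30, 14.36, and 14.47; log2 change −1.46, standard error 0.27, adjusted p = 0.0229) and 59 did not pass. *Dkc1*, dyskerin, was the only call among 23 ribosome biogenesis genes (−0.97, adjusted p = 0.0418). Mitochondrial ribosomal proteins were called in 0 of 76 (limma, 8 at an unadjusted p under 0.05), tRNA synthetases in 0 of 33 (5), RNA polymerase II and Mediator subunits in 0 of 39 (3), nuclear pore proteins in 0 of 23 (5), and genes of the nuclear envelope and nuclear positioning in 0 of 17 (3). The median of these 5 lists ran from −0.14 to −0.00. Of 10 reference genes, 1 was called, *Tfrc*, the transferrin receptor (13.61, 12.93, and 13.27 against 14.59, 14.75, and 14.23; log2 change −1.25, standard error 0.22, adjusted p = 0.0208). *Slc38a3* kept its call without any 1 mouse (highest adjusted p = 0.0394). *Slc7a8* lost its call without Δ1w replicate 5 or 8 (adjusted p = 0.0779 to 0.0814). *Rpl3l* lost its call without control replicate 1, 2, or 6 or Δ1w replicate 8 (adjusted p = 0.0732 to 0.0781). *Dkc1* lost its call without control replicate 1 or 6 or Δ1w replicate 1, 5, or 8 or Δ2w replicate 2, 3, or 4 (adjusted p = 0.0632 to 0.146). *Tfrc* lost its call without control replicate 1 or 2 or Δ1w replicate 5 or 8 (adjusted p = 0.0733 to 0.0887).

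Matrix genes *Mfap5*, *Dpt*, and *Cilp* rose, and markers of matrix-producing cells were highest in Δ1w replicates 5 and 8. All 20 measured fibroblast and matrix markers had a positive change, 2 were called, 18 did not pass, and their median change was 0.88. At an unadjusted limma p under 0.05, 17 of the 20 were higher, the 2 called ones among them, as were 7.2% of all rows. By mouse it was 0.26, 1.39, and 1.11 in Δ1w replicates 1, 5, and 8, against 0.03, −0.30, and 0.28 in the control mice, so that replicate 1 lay within the control range. *Mfap5*, a microfibril protein, was at 11.23, 10.65, and 11.54 in the control mice and 12.20, 13.35, and 13.70 in the Δ1w mice (log2 change 1.94, standard error 0.35, adjusted p = 0.0217), and *Dpt*, dermatopontin, at 12.19, 11.59, and 12.56 in the control mice and 13.23, 13.80, and 13.59 in the Δ1w mice (log2 change 1.43, standard error 0.27, adjusted p = 0.027). The proteoglycan genes *Lum* and *Dcn* had changes of 1.38 and 0.94, and the collagen *Col6a3* one of 1.06 (adjusted p = 0.0554, 0.0725, and 0.0708). The summed signal of the list, as log2, was 19.07 to 19.54 in control and 19.46 to 20.23 in Δ1w mice. Of 14 tendon and cartilage markers, *Cilp*, a cartilage matrix protein, rose (11.83, 12.89, and 13.05 against 9.61, 9.81, and 9.98; log2 change 2.78, standard error 0.27, adjusted p = 0.00131), and the list median was 0.46 (−0.23, 1.05, and 0.69 by mouse), with a summed signal of 14.48 to 15.20 in control and 14.85 to 16.48 in Δ1w mice. Of 20 macrophage and other immune markers, 18 had a positive change, where 49.7% of all rows did, and 0 were called (limma, 9 higher at an unadjusted p under 0.05, against 7.2% of all rows). Their median was 0.51 and their summed signal 13.53 to 14.07 in control and 13.89 to 14.42 in Δ1w mice. The macrophage gene *Csf1r* had a change of 0.99 (adjusted p = 0.0615). The part of these cells in the integrin, *Lama2*, and *Igfbp6* values was not tested. *Cilp* kept its call without any 1 mouse (highest adjusted p = 0.011). *Mfap5* lost its call without control replicate 1 or 2 or Δ1w replicate 5 or 8 (adjusted p = 0.0748 to 0.0959). *Dpt* lost its call without control replicate 1 or 2 or Δ1w replicate 5 or 8 (adjusted p = 0.0855 to 0.114).

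Other cell types gave 0 calls in limma, where 1.41% of all rows were called, so 0 calls among so few markers say little. The median change was −0.21 for 16 endothelial markers (1 at an unadjusted p under 0.05), −0.09 for 11 of pericytes and smooth muscle (1), 0.20 for 8 of Schwann cells (1), 0.41 for 8 of adipocytes (1), and 0.08 for 3 erythroid ones (0). Interferon response genes were also called in 0 of 21 (limma, 1 at an unadjusted p under 0.05, median −0.02).

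**Figure D3:**
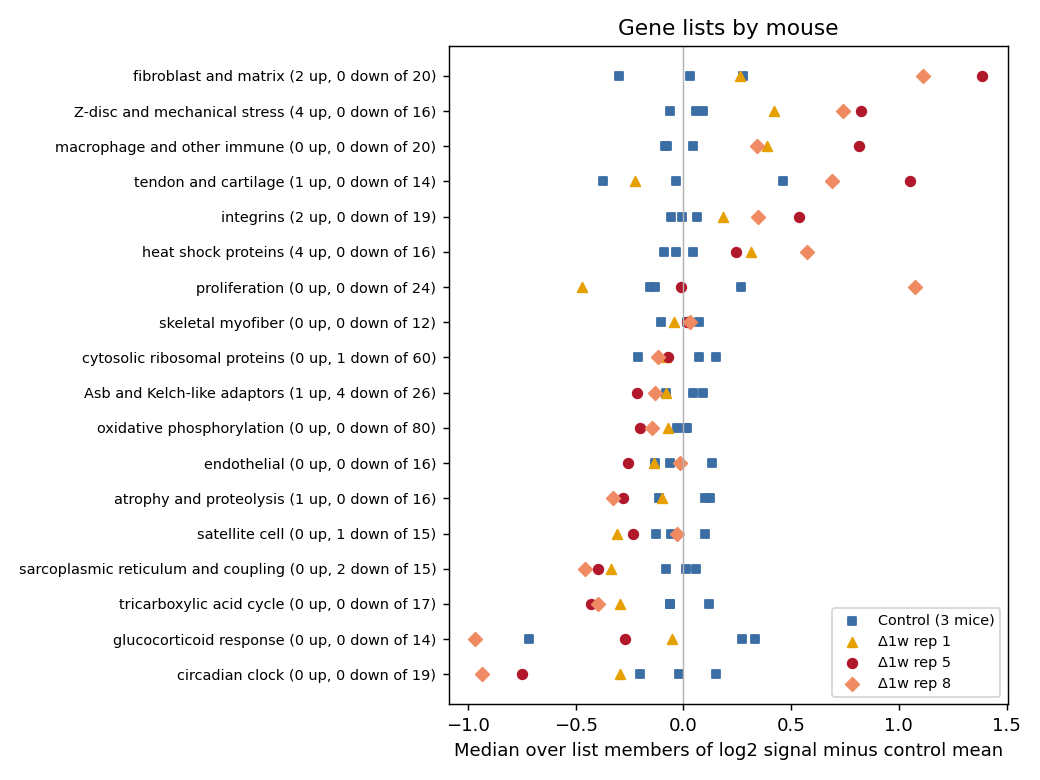
For each gene list the x axis gives the median over its members of the log2 signal of a mouse minus the control mean, and the counts of members called higher and lower stand beside its name. Squares are control mice, and the triangle, circle, and diamond are Δ1w replicates 1, 5, and 8. In the fibroblast and matrix list replicate 1 lies at 0.26 among the control mice and replicates 5 and 8 at 1.39 and 1.11, while in the list of the sarcoplasmic reticulum all 3 lie below the control mice.

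Clock genes differed between the Δ1w mice themselves. *Arntl*, the activator of the circadian clock, was at 8.15, 8.88, and 7.95 in the control mice and 8.95, 10.85, and 10.54 in the Δ1w mice, and its partner *Npas2* at 6.49, 6.27, and 6.11 in the control mice and 5.79, 8.53, and 8.44 in the Δ1w mice. Their clock output *Dbp* was at 16.12, 16.25, and 16.99 in the control mice and 16.12, 14.40, and 13.78 in the Δ1w mice and the repressor *Per3* at 10.45, 9.93, and 11.49 in the control mice and 10.09, 8.33, and 7.65 in the Δ1w mice. Δ1w replicates 5 and 8, which share the name prefix, lay outside the control range in all 4 genes. Replicate 1 lay within it or at its edge in *Arntl*, *Dbp*, and *Per3* and below it in *Npas2*. Of 19 clock genes 0 were called (limma, 9 lower and 2 higher at an unadjusted p under 0.05, against 6.79% and 7.2% of all rows), with a median of −0.69 (−0.29, −0.75, and −0.93 by mouse). The smallest adjusted p was that of the repressor *Nr1d2*, which was low in all 3 Δ1w mice (13.39, 13.25, and 12.82 against 14.12, 13.80, and 14.09; −0.85, adjusted p = 0.0558). Of 14 genes of the glucocorticoid response 0 were called (limma, 5 lower at an unadjusted p under 0.05, median −0.46), and *Sgk1* in this list was at 14.74, 12.98, and 14.76 in the control mice and 12.63, 12.79, and 12.01 in the Δ1w mice. An index of 6 clock genes was the mean of *Dbp*, *Nr1d1*, *Per2*, and *Per3* minus that of *Arntl* and *Npas2*. With this index as a covariate, which separates replicates 5 and 8 from the other 7 mice of the study, 8 rows were called, all among the 312. They were *Fam171b*, *Cilp*, *Rgcc*, *Mfhas1*, *Ctnna3*, *Zfp385a*, *Aldh1a1*, and *Cdkn1c*. Clock state, prefix, and the larger change in replicates 5 and 8 cannot be told apart here.

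**Figure D4:**
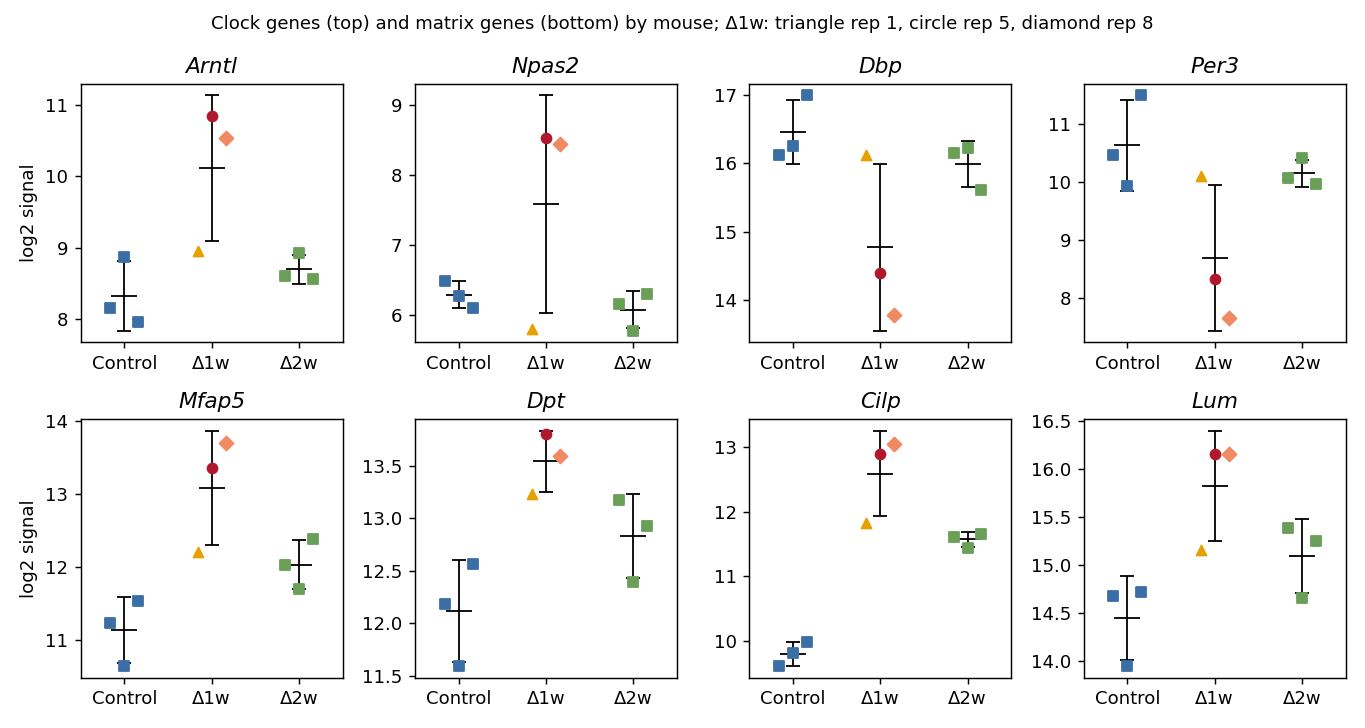
Log2 signals of 4 clock genes (top) and 4 matrix genes (bottom) in each mouse of the control, Δ1w, and Δ2w groups, with the mean and SD of 3 mice as bars. In the clock genes the circle and diamond of Δ1w replicates 5 and 8 stand apart from the other 7 mice, while in *Cilp* all 3 Δ1w mice lie above the control mice.

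The change of Δ1w replicate 1 could be far smaller or far larger than that of replicates 5 and 8. *Smco1*, a membrane protein of muscle, was at 12.53, 12.94, and 12.78 in the control mice and 12.24, 11.24, and 11.46 in the Δ1w mice (log2 change −1.11, standard error 0.24, adjusted p = 0.0496), and the fall of replicate 1 was 0.364 of the mean fall of the others. *Anpep*, aminopeptidase N, was at 9.72, 9.80, and 10.12 in the control mice and 10.64, 12.15, and 11.59 in the Δ1w mice (log2 change 1.58, standard error 0.31, adjusted p = 0.0296), with a share of 0.384. In contrast, *Egln3*, an oxygen-dependent prolyl hydroxylase, was at 11.83, 11.74, and 11.75 in the control mice and 14.06, 13.01, and 13.19 in the Δ1w mice (log2 change 1.65, standard error 0.28, adjusted p = 0.0148), with a share of 1.73, and *Fam83d*, a spindle protein, at 7.52, 7.85, and 7.74 in the control mice and 5.66, 6.41, and 6.59 in the Δ1w mice (log2 change −1.48, standard error 0.25, adjusted p = 0.0139), with a share of 1.70. One of the 5 narrowest gaps between the groups was that of *Lrrc32*, a docking protein of TGF-β, at 6.01, 5.63, and 6.25 in the control mice and 7.14, 7.06, and 6.57 in the Δ1w mice (log2 change 0.96, standard error 0.21, adjusted p = 0.0455). *Egln3* lost its call without control replicate 1, 2, or 6 (adjusted p = 0.0523 to 0.0578). *Fam83d* lost its call without control replicate 2 or 6 (adjusted p = 0.0523 to 0.058). *Smco1* lost its call without control replicate 1, 2, or 6 or Δ1w replicate 5 or 8 or Δ2w replicate 2, 3, or 4 (adjusted p = 0.0724 to 0.17). *Anpep* lost its call without control replicate 1, 2, or 6 or Δ1w replicate 5 or 8 or Δ2w replicate 3 (adjusted p = 0.053 to 0.109). *Lrrc32* lost its call without control replicate 1, 2, or 6 or Δ1w replicate 1 or 5 or Δ2w replicate 2, 3, or 4 (adjusted p = 0.0544 to 0.156).

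Genes of slow fibers rose in 6 of 14 members and fell in 0, against 0.905% and 0.5% of all rows, with a median of 1.28 (0.79, 1.52, and 1.42 in Δ1w replicates 1, 5, and 8), led by *Sln*, sarcolipin (11.37, 13.47, and 13.08 against 8.45, 8.55, and 9.80; log2 change 3.70, standard error 0.48, adjusted p = 0.00367), and with *Tnni1*, *Myl2*, *Tnnc1*, *Myoz2*, and *Tpm3* at 2.68, 2.48, 2.47, 1.29, and 1.27. *Myh7*, *Tnnt1*, and *Atp2a2*, which the paper also names as slow fiber genes, had changes of 2.75, 1.49, and 1.08. They did not pass (adjusted p = 0.0556, 0.0725, and 0.0628). Fast fiber genes were called in 0 of 15 (limma, 1 at an unadjusted p under 0.05) with a median of −0.10. Their mean signal, however, was 18.71 to 18.87 on the 6 arrays, near the ceiling, where changes are compressed in both directions. Developmental isoforms were called in 0 of 7 (limma, 3 at an unadjusted p under 0.05) with a median of 0.24, among them embryonic myosin, *Myh3*, at 7.24, 6.97, and 6.85 in the control mice and 7.67, 9.59, and 8.62 in the Δ1w mice (1.61, adjusted p = 0.0715). Among 14 genes of myogenic regulation and fusion the only call was *Mymk*, with a list median of −0.21. *Sln*, *Myl2*, and *Myoz2* kept their calls without any 1 mouse (highest adjusted p = 0.0305). *Tnni1* lost its call without control replicate 1 or 6 or Δ1w replicate 5 or 8 (adjusted p = 0.0597 to 0.0762). *Tnnc1* lost its call without control replicate 1, 2, or 6 or Δ1w replicate 5 or 8 (adjusted p = 0.0707 to 0.136). *Tpm3* lost its call without control replicate 1, 2, or 6 or Δ1w replicate 5 or 8 or Δ2w replicate 2, 3, or 4 (adjusted p = 0.0609 to 0.17).

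Neighbors of the targeted and the driver gene gave 0 calls. Since 1.41% of all rows were called, 0 calls among so few genes say little about them. Of the 10 measured genes on each side of *Mymk* on the chromosome, 0 of 20 were called in limma, with changes of −0.51 to 0.74, and of those around *Pax7*, which drives the Cre, 0 of 20 were called, with changes of −0.80 to 0.38. *Ccl21a*, *Ccl21b*, *Ccl21c*, *Gm10591*, and *Gm13304*, of the chemokine Ccl21 family, were called higher, but they share near-identical sequence and cannot be assigned to 1 gene.

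Against the same control mice, 312 rows were called for Δ1w and 10 (0.045%) for Δ2w muscle. In the direct comparison of Δ1w with Δ2w muscle, 1 row differed (0.0045%), *Rgcc* (adjusted p = 0.028, and 0.0935 to 0.306 without control replicate 1, Δ1w replicate 5 or 8, or Δ2w replicate 3), and 8.29% of rows had an unadjusted p under 0.05 in limma. For the other genes the difference between the 2 deletion groups did not pass, and side by side the changes against control of *Tceal7* were 3.60 in Δ1w and 2.38 in Δ2w muscle, those of *Cdkn1c* −2.15 and −1.53, and those of *Hspb1* 2.21 and 0.63. Other genes changed more in Δ2w muscle, among them *Mymk* (−3.68 and −4.23), *Itga4* (1.24 and 1.66), *Kcnh2* (1.46 and 1.60), and *Mustn1* (1.22 and 1.34). The Δ2w mean had the same direction in 197 of the 201 higher and 108 of the 111 lower rows. Both changes share the control mice, so these counts are not a test.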

How the data were processed

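Total RNA of TA muscle of single mice was labeled with a 3′ amplification kit and hybridised to Clariom S Mouse arrays, with 1 array per mouse. The authors summarised the arrays by sst-rma, and the deposited values are log2 signals, normalized across arrays, so depth has no counterpart here and the number of arrays sets the precision. No source used here names the genome build of the probes. Of 28846 rows, 6640 are control probes and were left out. Of 22206 gene rows, 19572 have 1 gene symbol by the platform annotation and 2634 have none. For 55 symbols with several rows the brightest row was used, and in 142 rows the signals duplicate those of another row. Since sst-rma scales all arrays to 1 distribution, a change of all transcripts together cannot be seen.

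Control, Δ1w, and Δ2w mice were fitted in 1 model with limma 3.58.1 in R 4.3.3 (lmFit and eBayes), adjusted over 22206 rows and called at an adjusted p under 0.05. Before use the model was run on simulated data with independent noise for each row and array. These held no effect of prefix or clock state, so the run cannot judge the calls in that respect. The genes and 58 gene lists were chosen with earlier results of these data known, so counts within lists are descriptions. Genes named were *Mymk*, genes the paper's text names, the 20 largest rises and 20 largest falls with a symbol, every called member of a list and up to 4 further members, genes with the lowest and highest share of Δ1w replicate 1 in the change, and those with the smallest and largest gap between groups. Of these, the ones that carry a comparison are described. *Npas2*, *Dbp*, and *Per3* were named after their values were seen. Upstream sequences are from RefSeq (GRCm38.p6), and 15691 of 19505 symbols matched one. Alternatives left out each mouse and changed the normalization, a minimum signal of 6, the variance model, the array weights, the groups in the fit, covariates, and the test, including the unpaired t-test that the study's methods name for data in general (the arrays were compared there in the Transcriptome Analysis Console).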

Additional observations from a re-analysis of the deposited data

Results flagged for a closer look

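*Rgcc* was the only gene whose change against the shared control mice differed between the 2 deletion groups by the test of that difference. It was higher in Δ1w than in Δ2w muscle by 1.98 on the log2 scale (standard error 0.22, adjusted p = 0.028 from limma), with changes against control of 2.71 and 0.73. All 3 Δ1w mice lay above all Δ2w mice. The difference lost its call with the name prefix as a block (1.98, adjusted p = 0.0963), with the LacZ allele, which all Δ2w and 1 of 3 Δ1w mice carry, as a covariate (2.10, adjusted p = 0.101), with the clock index as a covariate (1.73, adjusted p = 0.309), and with only these 2 groups in the fit (1.98, adjusted p = 0.109). It was also lost without control replicate 1, Δ1w replicate 5 or 8, or Δ2w replicate 3 (adjusted p = 0.0935 to 0.306). Over all limma alternatives the adjusted p ran from 0.00532 to 0.309 and the difference from 1.73 to 2.20.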

How the results depend on the processing

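The count of rows called in Δ1w against control muscle was 312. It was 104 to 653 when 1 mouse was left out, 544 with a minimum mean signal of 6, 521 with a trended and robust variance, 178 with a random block for the prefix, 131 with only the 2 groups compared, 20 with replicate 1 alone standing for Δ1w muscle (its spread taken from the other groups), and 8 with the clock index as a covariate. The methods' t-test, which the study names for its data in general and not for the arrays, gave 2154 rows at an unadjusted p under 0.05 and 0 after Benjamini-Hochberg adjustment. Of the 312, 310 were kept with the trended variance, 290 with quantile normalization again, 290 with centred arrays, 260 with the LacZ allele as a covariate, 269 with the mean of Y-linked genes, and 178 with the block. Centring gave 179 higher and 135 lower rows. For Δ1w against Δ2w muscle the count of 1 became 0 to 58 when 1 mouse was left out (58 without Δ1w replicate 1), 10 with the trended variance, and 2 with the Y-linked mean. It became 0 with the block (1227 at an unadjusted limma p under 0.05), 0 with the LacZ allele (2170), and 0 with the clock index (1510). It was 143 for 2-fold changes at an unadjusted p under 0.05, and 1542 and 0 by the methods' t-test. No called gene named here changed sign under any alternative. In all 312 called rows the groups did not overlap, so leaving out mice or changing the test could not change a sign. Only the normalizations, the covariates, and the block could do so. Of the 98 genes chosen by rule, 71 kept their call with the block, 85 with the LacZ allele, and 8 with the clock index. With the clock index and with replicate 1 alone, 2 genes that were not called changed sign, *Npas2* to −0.53 and −0.50 and *Itga7* to −0.22 and −0.23. The clock index contains *Npas2*, so the value of this gene under that covariate is not independent of it. With replicate 1 alone, the value is that mouse minus the control mean. The cause of the change of *Itga7* with the clock index was not tested. Of 522 list medians recomputed under alternatives, 53 moved by more than the SD of the 3 Δ1w mice. No paired analysis was possible because no label pairs Δ1w with control mice. Signals near 6 lie at the level of negative control probes and limit the falls of dim genes, and signals near 19.93 limit rises and falls of bright ones.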

Other observations

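The called rows were spread over the chromosomes, with the highest shares on chromosomes 9 (2.47% of its 1132 rows), 1 (2.39% of 1089), and 4 (2.28% of 1183) and 0 of 45 on Y.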
